A study of Homo sapiens with 2 samples.

Results

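The LDB1 peaks at the end of the long arm of chromosome 7 were taken as every deposited peak on chromosome 7 with its midpoint at or above 148000000 (hg38). This gave 570 of the 53742 peaks in the series, and 570 of the 52765 on chromosomes 1 to 22 and X. The series mapped LDB1 by CUT&Tag, in which an antibody tethers the Tn5 transposase to chromatin so that DNA beside the target is cut and tagged. There was 1 LDB1 library and 1 IgG library, both of NB4 cells without treatment. NB4 is a human line from acute promyelocytic leukaemia and carries the PML::RARA fusion. The peaks came from the LDB1 library, and the IgG library was not analysed here. No value has a replicate check, no test between samples was possible, and the number of reads behind the peaks was unknown. The identity of the cells could not be checked from peak positions.

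LDB1 is a nuclear adaptor that has no known DNA-binding domain of its own. It dimerises and links LMO proteins, GATA factors and factors of the basic helix-loop-helix class, and such complexes bring distant enhancers and promoters together. The end of 7q holds genes of patterning (SHH, EN2, MNX1), of the chromatin machinery (EZH2, KMT2C) and of membrane excitability (KCNH2, DPP6). It also holds a block of zinc finger genes and the GIMAP genes of lymphocytes. Loss of 7q material is a recurrent lesion of myeloid neoplasms, and EZH2, CUL1 and KMT2C are among the genes studied there. The copy number of 7q in these cells was not measured here, and its part in the number of peaks was not tested.

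Sequence bears on these peaks where they lie over the start of a gene. For 4 genes of different groups the 250 bases before such a start are printed 5′ to 3′ on the gene's strand, from RefSeq (GRCh38.p14). Each window lay whole inside a peak, and each gene had the widest peak over a start in its list. Capitals mark the E-box CANNTG, the core site of basic helix-loop-helix factors, and the GATA forms AGATAA and TGATAA on either strand. The KCNH2 window (chr7:150955805-150956054, minus strand) lay in a peak of 4217 bp. The NOS3 window (chr7:150993532-150993781, plus strand) lay in a peak of 3050 bp, the KRABD3 window (chr7:149714701-149714950, plus strand) in one of 2720 bp, and the CUL1 window (chr7:148699460-148699709, plus strand) in one of 914 bp.
KCNH2: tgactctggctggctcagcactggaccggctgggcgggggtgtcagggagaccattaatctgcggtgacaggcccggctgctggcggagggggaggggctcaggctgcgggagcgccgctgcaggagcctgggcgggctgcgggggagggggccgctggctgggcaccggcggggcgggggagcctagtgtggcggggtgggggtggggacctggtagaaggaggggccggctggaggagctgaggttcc
NOS3: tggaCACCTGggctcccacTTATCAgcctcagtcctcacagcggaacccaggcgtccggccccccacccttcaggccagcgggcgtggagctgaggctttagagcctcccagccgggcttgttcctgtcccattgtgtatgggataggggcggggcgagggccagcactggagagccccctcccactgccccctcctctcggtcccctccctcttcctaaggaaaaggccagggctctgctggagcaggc
KRABD3: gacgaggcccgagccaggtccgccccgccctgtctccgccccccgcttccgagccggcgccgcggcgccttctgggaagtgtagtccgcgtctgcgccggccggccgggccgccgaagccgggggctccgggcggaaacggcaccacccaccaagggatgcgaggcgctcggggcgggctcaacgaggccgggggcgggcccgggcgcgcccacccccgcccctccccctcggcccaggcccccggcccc
CUL1: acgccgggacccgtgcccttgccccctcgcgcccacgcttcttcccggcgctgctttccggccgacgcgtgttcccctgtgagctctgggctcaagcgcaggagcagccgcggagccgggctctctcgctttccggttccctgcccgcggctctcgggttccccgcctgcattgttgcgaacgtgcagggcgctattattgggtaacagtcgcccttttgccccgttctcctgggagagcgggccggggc
Of these 4 windows, the one before NOS3 held an E-box and a GATA form, and the other 3 held neither. G and C made up 74.4% of the KCNH2 window, 66.8% of the NOS3 window, 82.0% of the KRABD3 window and 69.6% of the CUL1 window. The region also holds 5 microRNA genes, of which only MIR3907, inside CRYGN (a crystallin gene), lay under a peak, of 1143 bp. Over all chromosomes counted, peaks touched 187 of 1911 microRNA genes (9.79%). With 5 genes, a difference from that share could not be judged. The mature sequence of MIR3907 follows, with the seed (bases 2 to 8) in capitals.
hsa-miR-3907: aGGUGCUCcaggcuggcucaca

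The peaks were spread unevenly along the region. The stretch from the limit to the last listed position was 11.2 Mb long and held 50.7 peaks per Mb, against 25.5 on the rest of chromosome 7 and 17.3 over all other sequence of chromosomes 1 to 22 and X. Per protein-coding gene there were 6.63 peaks, against 2.62 over all other sequence. The region was chosen by position with its density known, so these values are descriptions. Like ends of chromosomes were denser still. The first 7 Mb of chromosome 7 held 180.4 peaks per Mb, and windows of equal length at the ends of 16q and 17q held 66.5 and 94.7. Across the rule's limit, the last peaks below it began at 147801808 and 147847835 (964 and 757 bp wide), and the first above it began at 148426226 and 148435899 (659 and 1123 bp wide).

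Counted in steps of 1 Mb from the limit, the fourth, which runs from within NOS3 to the end of PRKAG2 and beyond, had the most, with 103 peaks and 25 genes. The eighth, with EN2 and SHH, followed with 90 peaks and 6 genes, and the tenth, with DNAJB6 and the lower end of PTPRN2, with 89 peaks and 4 genes. The first, with CUL1 and EZH2, and the sixth, with the lower end of DPP6, had the fewest among the full steps, with 11 peaks each. High counts lay both where genes were close together, around KCNH2, and where they were few, around EN2 and in PTPRN2.

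**Figure D1:**
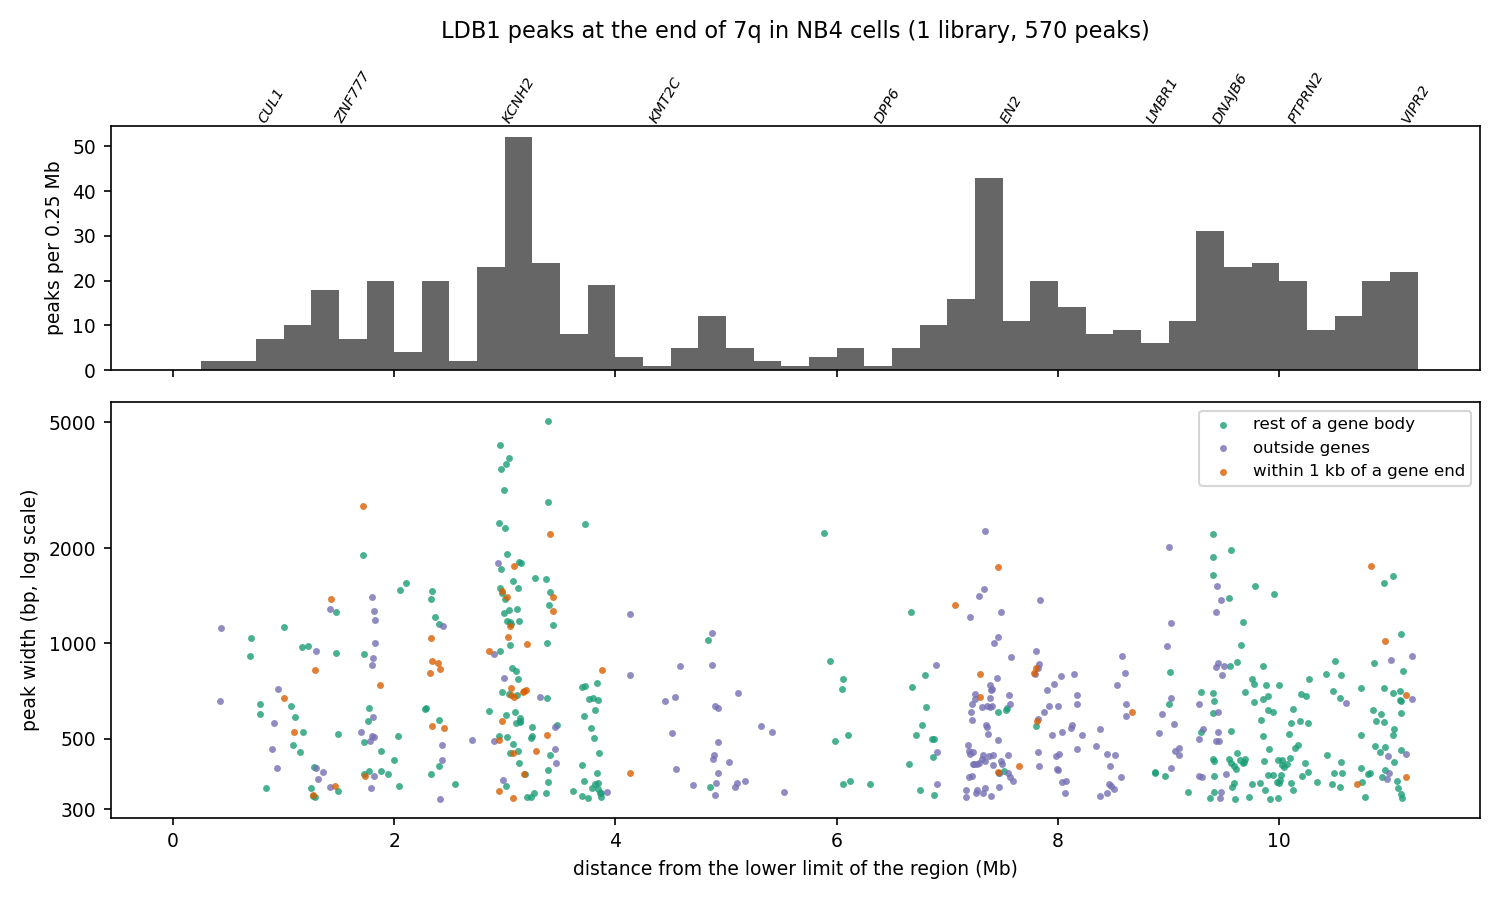
Peaks along the end of 7q, by distance in Mb from the lower limit of the region. Upper panel, peaks per 0.25 Mb, with gene positions above it; lower panel, the width of each of the 570 peaks in bp on a log scale, coloured by place. The highest bars stand just beyond KCNH2 and near EN2, and the 6 peaks over 3 kb wide stand near KCNH2 and in WDR86.

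Genes from KCNH2 to AGAP3 lay under one dense run of LDB1 peaks. When peaks 10 kb or less apart were joined, 60 peaks fell into a single cluster of 202.4 kb (chr7:150941442-151143869), which was 10.5% of the members. It ranked 13th by number of peaks among the clusters of chromosomes 1 to 22 and X. Peaks covered 36.2% of its length, against 3.64% of the whole region. Of the 60 peaks, 44 had their midpoint inside a gene away from its ends, 13 lay within 1 kb of a gene end and 3 lay outside genes. Their median width was 965 bp (95% interval of the median 689 to 1278 bp), against 525.5 bp (498 to 553 bp) for the other 510 members. The cluster was defined by the gaps between these same peaks, and wider peaks leave smaller gaps. The difference in width and the coverage are therefore descriptions, and neither was tested. Of the 6 members at least 3 kb wide, 5 were in this cluster.

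KCNH2 encodes the cardiac potassium channel hERG and is also expressed in leukaemic cells. Its 33.4 kb gene body held 11 peaks, which were 494, 2392, 510, 1496, 4217, 944, 3549, 1714, 701, 1447 and 570 bp wide from the far end of the gene to its start. The widest, at chr7:150954337-150958553, covered a listed start inside the gene, and 4 of its 5 listed starts lay in a peak. NOS3, the gene of endothelial nitric oxide synthase, held 7 peaks, of 3050, 1250, 1385, 2307, 3673, 356 and 593 bp in order from its start. The first of these covered both listed starts. Peaks over 2 kb thus lay both at starts and deep inside these genes. ATG9B, an autophagy gene, overlaps the end of NOS3 and held 5 peaks of 508 to 1916 bp, the one of 593 bp shared with NOS3. ABCB8, which encodes a mitochondrial transporter, held 6, the widest of 3844 bp (chr7:151037492-151041335) over no listed start. SLC4A2, an anion exchanger gene, held 6, and AGAP3, the longest gene of the run at 58.6 kb, held 15 of up to 1805 bp.

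The short genes of the run also had peaks at their starts. ASIC3, a proton-gated channel gene, and FASTK, which encodes a mitochondrial RNA-binding protein, each had a start in a peak, of 1139 and 1762 bp. TMUB1 had a start in a peak of 678 bp. CDK5, a kinase gene of postmitotic neurons, had no peak midpoint in its 4.08 kb body but 8 within 10 kb of it. The nearest, of 723 bp, lay over a start of SLC4A2 and began 0.037 kb from the start end of CDK5. The neighbours share such peaks, since the genes lie close together.

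**Figure D2:**
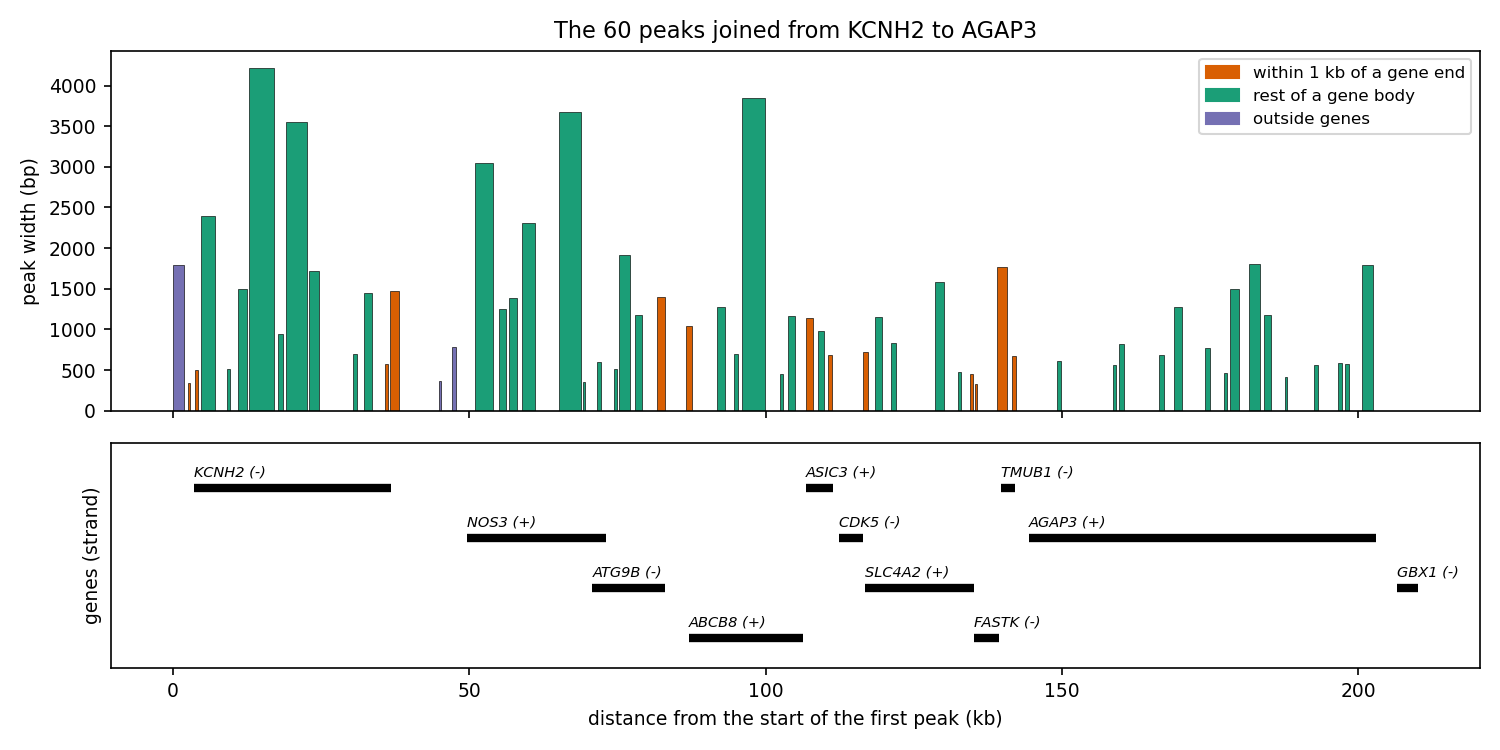
The cluster of 60 peaks by distance in kb from its first peak. Upper panel, each bar is 1 peak, with its height and breadth both showing its width and its colour its place; lower panel, the genes with their strand. The widest bar, 4217 bp, stands inside KCNH2, and bars over 3 kb also stand in NOS3 and ABCB8.

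Outside that run 9 peaks were at least 2 kb wide, in or near WDR86, KRABD3, PRKAG2, INSIG1, DPP6, DNAJB6 and MNX1. The widest member of all, 5029 bp (chr7:151391861-151396889), lay inside WDR86, a WD repeat gene, 15.9 kb from the nearest gene end. WDR86 held 13 peaks in 41.8 kb, and 2 others of them were 2791 and 2223 bp wide, the last over both listed starts. KRABD3 held 6, with 2720 bp over its start. PRKAG2, which encodes a regulatory subunit of the AMP-activated kinase, held 1 peak of 2380 bp far inside the gene, 148.6 kb from its nearest end. DNAJB6, a chaperone gene, held 11 peaks, the widest of 2217 bp, and a cluster of 10 peaks spanned 16.6 kb there. The others of 2 kb or more were 2271 bp wide, 29.0 kb outside INSIG1, 2228 bp over 2 listed starts of DPP6, and 2023 bp, 1.2 kb outside the far end of MNX1.

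Peak width was close to that of the whole list. The 570 peaks had a median of 548 bp (95% interval of the median 518 to 586 bp, quartiles 404 and 802 bp, range 323 to 5029 bp). Over all other sequence the median was 550 bp (547 to 553 bp). On the rest of chromosome 7, which includes the first 7 Mb, it was 624 bp (610 to 634 bp), and the interval did not overlap that of the end of 7q. The first 7 Mb alone had a median of 805 bp, and the ends of 16q and 17q had 608 and 587.5 bp. Peaks at least 1 kb wide were 16.5% of the members (exact 95% interval 13.5 to 19.8%), against 24.0% (22.7 to 25.4%) on the rest of chromosome 7 and 16.5% (16.1 to 16.8%) over all other sequence. These intervals take in counting error within the list of peaks and nothing else. Within the region, width went with crowding. The 101 peaks with no other within 10 kb had a median of 478 bp (422 to 520 bp), and the 266 peaks in clusters of at least 5 had 627.5 bp (571 to 678 bp).

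A smaller share of the peaks at the end of 7q lay at gene ends than over all other sequence, as was also the case at the other chromosome ends compared. The midpoints of 57 peaks, 10% (7.66 to 12.8%), lay 1 kb or less from an end of a protein-coding gene, against 15.0% (14.7 to 15.3%) over all other sequence. The interval overlapped that of the rest of chromosome 7, at 12.6% (11.5 to 13.7%). Other chromosome ends also had shares below 15.0%, with 6.33% (5.05 to 7.82%) in the first 7 Mb of chromosome 7, 6.69% (5.01 to 8.73%) at the end of 16q and 11.1% (9.27 to 13.1%) at the end of 17q. Such places made up 2.82% of the sequence of the region, so the share of peaks was 3.55 times the share of sequence, against 6.26 times over all other sequence. The ratio was 1.54 in the first 7 Mb of chromosome 7, 2.03 at the end of 16q and 1.76 at the end of 17q. The rest of gene bodies held 301 peaks, 52.8% (48.6 to 57.0%), and made up 54.4% of the sequence. Sequence outside genes held 212 peaks, 37.2% (33.2 to 41.3%), against 36.3% (35.9 to 36.7%) over all other sequence. The 57 peaks at gene ends had a median width of 712 bp (609 to 832 bp), against 552 bp (509 to 599 bp) in the rest of gene bodies and 519.5 bp (478 to 558 bp) outside genes.

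Of the 86 protein-coding genes with a midpoint in the region, 74 (86.0%, interval 76.9 to 92.6%) had a peak midpoint in the gene body or within 10 kb, where 70.1% of all protein-coding genes had one. For 41 genes a peak lay 1 kb or less from a gene end (47.7%, 36.8 to 58.7%), where the share over all protein-coding genes was 37.6%. Starts were listed for 79 of the 86 genes, and 29 (36.7%, 26.1 to 48.3%) had a listed start inside a peak, where the share over the 15812 protein-coding genes with a listed start was 23.8%. On the rest of chromosome 7 these shares were 80.0, 50.8 and 37.5%. The median gene of the region had 3.5 peaks in or within 10 kb, against 1 for all other protein-coding genes and 2 on the rest of chromosome 7. In the first 7 Mb of chromosome 7 and at the ends of 16q and 17q the medians were 10, 4 and 5. In that order, 98.7, 86.4 and 92.1% of genes there had a peak in or within 10 kb. A peak lay at a gene end for 81.0, 43.7 and 48.8%, and a listed start lay inside a peak for 57.7, 22.1 and 22.2%.

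The far ends of genes, where transcription stops, carried peaks at 21 genes, against 30 at the start ends. Among the 79 genes with a listed strand, 30 (38.0%, 27.3 to 49.6%) had a peak within 1 kb of the start end and 21 (26.6%, 17.3 to 37.7%) within 1 kb of the far end. Over all other protein-coding genes the shares were 31.8% (31.1 to 32.6%) at the start end and 10.4% (9.94 to 10.9%) at the far end. The far-end interval did not overlap that of all other genes, nor that of the rest of chromosome 7 (14.0%, 11.6 to 16.8%). It did overlap those of the first 7 Mb of chromosome 7 (40.4%, 27.0 to 54.9%) and of the ends of 16q (16.9%, 9.31 to 27.1%) and 17q (24.4%, 17.5 to 32.6%), so the far-end share was not shown to be particular to 7q. Where no listed start of any gene lay within 2 kb of the far end, the share was 28.2% (20 of 71 genes), against 8.77% of all other such genes. The difference was not tested. Genes with a peak at the far end included KCNH2, SLC4A2, FASTK, ASIC3, SHH, LMBR1 and KMT2C.

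**Figure D3:**
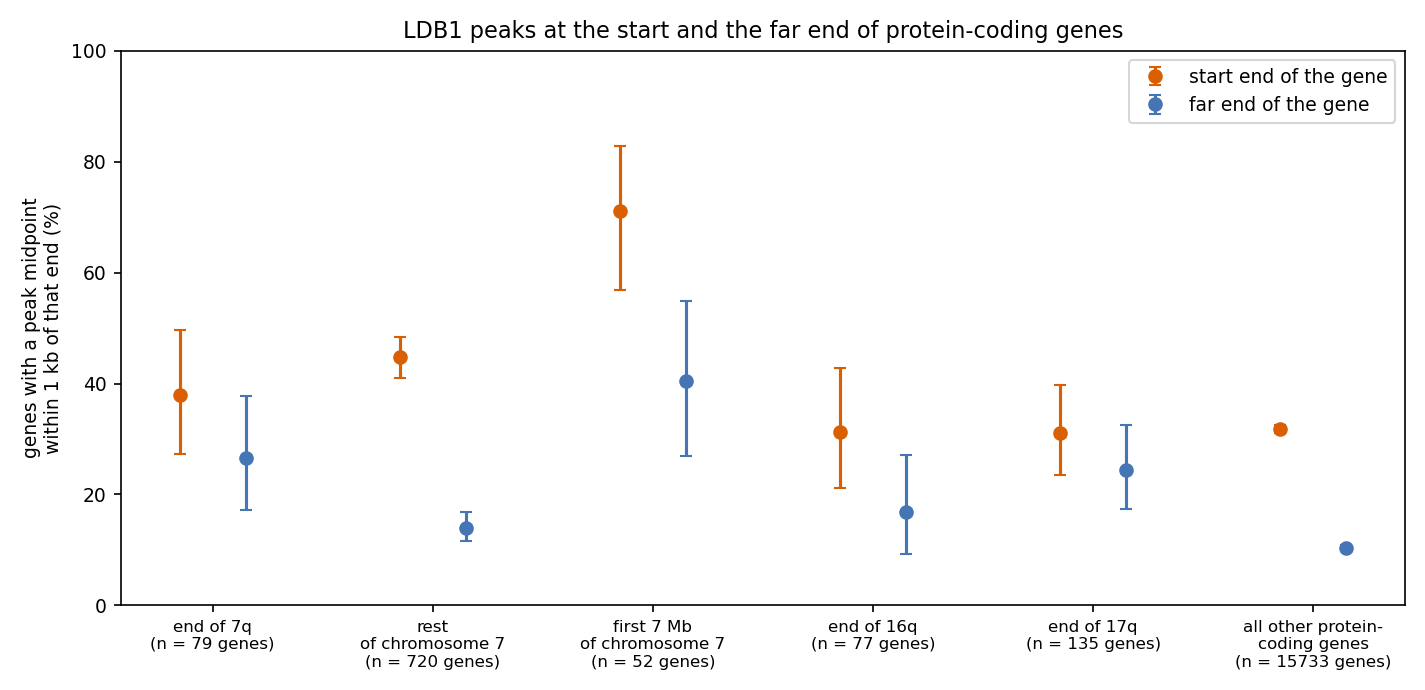
Share of protein-coding genes, in percent, with a peak midpoint within 1 kb of the start end (orange) or of the far end (blue), for genes with a listed strand in each part of the genome. Points are shares and bars exact 95% intervals; the far-end point of the end of 7q stands at 26.6% and that of all other genes at 10.4%.

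Genes of channels and nerve cells had the highest median count of peaks among the 8 lists, but not the highest density. All 7 of its genes with a midpoint in the region (59.0 to 100%) had a peak in or within 10 kb. The interval took in the 70.1% of all protein-coding genes. The median was 15, against 1 over all other protein-coding genes. Of the 6 with a listed start, 5 (83.3%, 35.9 to 99.6%) had one inside a peak. That interval took in the 36.7% of the region but not the 23.8% over all genes with a listed start. A gene counted if any of its listed starts lay in a peak. KCNH2 had 5 listed starts, DPP6 4, ASIC3 and VIPR2 2 each, and HTR5A and CDK5 1 each. The part of the number of starts in this share was not tested. Per 100 kb of gene body its median was 7.72 peaks, against 25.5 for energy and lipid genes and 17.4 for membrane and transport genes. PTPRN2, DPP6, VIPR2, KCNH2, ASIC3, CDK5 and HTR5A had 81, 23, 19, 15, 8, 8 and 1. The list holds the longest genes of the region, and per 100 kb of gene body PTPRN2 held 7.72 peaks, DPP6 1.83, VIPR2 14.6 and KCNH2 33.0. HTR5A, a serotonin receptor gene, had a single peak, of 1322 bp, over its start. CNTNAP2, a neurexin family gene that reaches 421 kb into the region from below the limit, had no peak in that part.

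PTPRN2, the gene of a phosphatase-like protein of dense-core vesicles, held more members than any other gene of the region, 81 peaks or 14.2% of them, in 1049 kb. Among the 314 protein-coding genes of at least 500 kb it ranked 2nd by number of peaks and 4th by peaks per 100 kb, where the median was 0.389. In 4 equal parts from its lower-numbered end the gene held 26, 26, 17 and 12 peaks. The peaks were narrow, with a median of 436 bp and 5 of them 1 kb or wider. DPP6, which encodes a partner of potassium channels, is longer, at 1146 kb, but held 21 peaks, with 3, 6, 0 and 12 in equal parts from its start. The widest of them, 2228 bp, covered 2 of its 4 listed starts. PRKAG2 held 25 in 321 kb, with 1, 4, 8 and 12 in equal parts and the higher counts toward its start. VIPR2, the gene of a receptor for vasoactive intestinal peptide, held 17 in 117 kb, with peaks of 689 and 605 bp over its outer and inner listed starts.

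**Figure D4:**
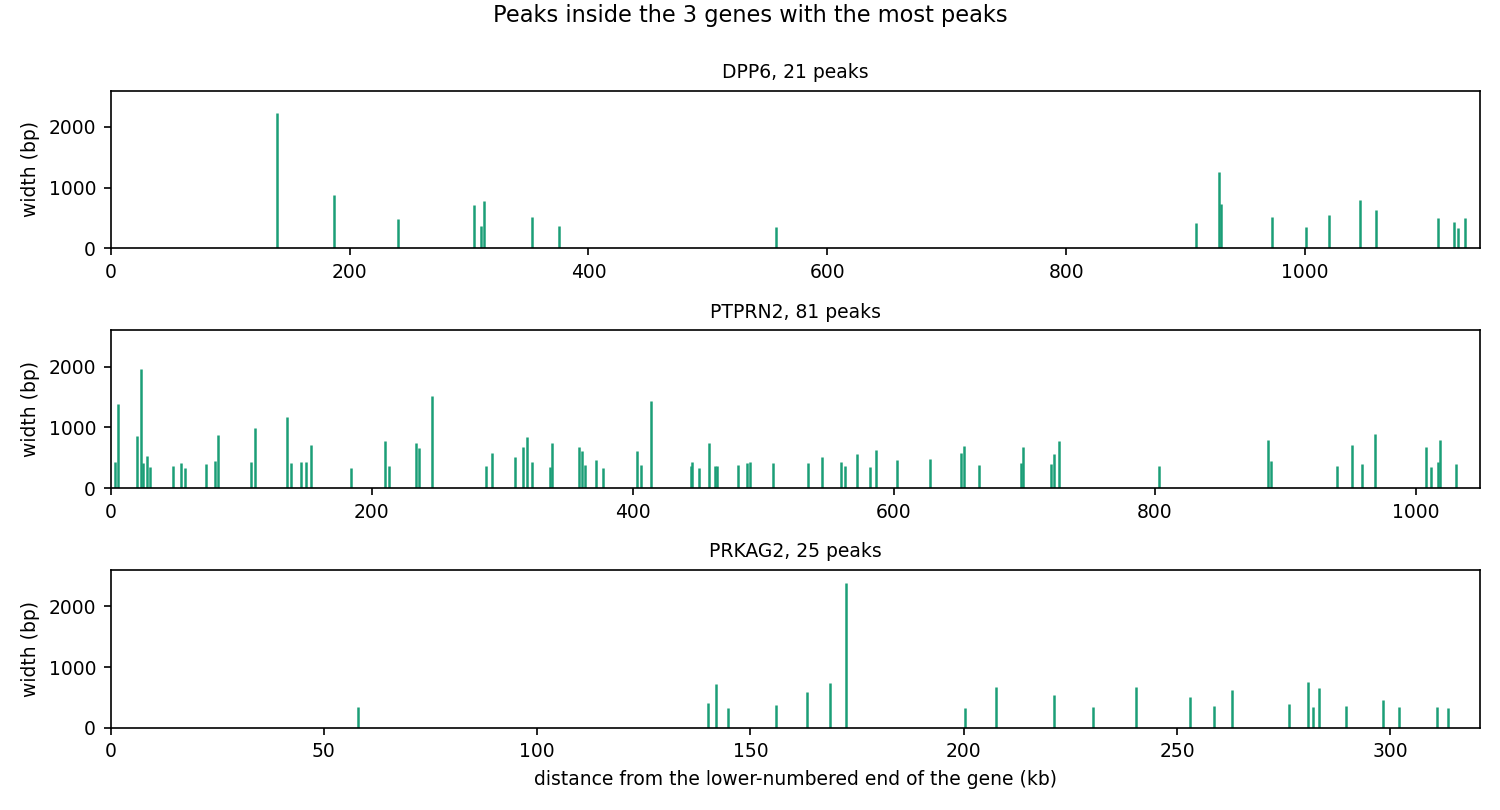
Positions and widths of the peaks inside DPP6, PTPRN2 and PRKAG2, by distance in kb from the lower-numbered end of each gene; each line is 1 peak and its height the width in bp. PTPRN2 has 81 peaks along its whole length, and DPP6 has 21 with a wide gap in its middle.

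Genes of energy and lipid metabolism had 2 to 26 peaks each. All 8 (63.1 to 100%) had a peak in or within 10 kb, with a median of 6, and the interval took in the 70.1% of all protein-coding genes. A start lay inside a peak for 5 of 8 (62.5%, 24.5 to 91.5%), against 23.8% over all genes with a listed start and 36.7% in the region, which lay inside the interval. PRKAG2 had 26, NOS3 13, ABCB8 11, INSIG1 6, RARRES2 6, ATP6V0E2 3, AOC1 2 and RHEB 2. INSIG1, which encodes a sterol-sensing regulator of cholesterol synthesis, had peaks of 799 and 677 bp on either side of its start. RHEB, the gene of the GTPase that activates mTORC1, had 1 peak of 552 bp in its body and no listed start in a peak. RARRES2, which encodes the chemoattractant chemerin, had a start in a peak of 549 bp.

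Chromatin and nuclear genes had 0 to 7 peaks each. Of the 8 on that list, 6 (75%, 34.9 to 96.8%) had a peak in or within 10 kb, against 70.1% of all protein-coding genes, with a median of 1.5, against 1 for all other protein-coding genes and 3.5 for the genes of the region. None of the 6 with a listed start had one inside a peak (0 to 45.9%), where the share over all genes with a listed start, 23.8%, lay inside the interval. EZH2, the catalytic subunit of the Polycomb complex PRC2, had 1 peak of 349 bp in its 76.9 kb body (chr7:148843639-148843987). KMT2C, a histone H3 lysine 4 methyltransferase of enhancers, had no peak in its 301 kb body, and 4 within 10 kb, of 1240, 793 and 391 bp beyond its far end and 659 bp before its start. KMT2C shares near-identical sequence with copies elsewhere in the genome, so its count is uncertain. SMARCD3, a subunit gene of BAF remodelling complexes, had 7 peaks, of which the widest, 1615 bp, lay in the gene body. ACTR3B, which has a near-identical partner in ACTR3C, and NOM1 had 2 each. ACTR3B is an actin-related protein gene that was counted on this list, so the list name does not describe every member. NCAPG2, a condensin II subunit gene, had 1 of 361 bp. PAXIP1, whose protein works with KMT2C, and XRCC2, a DNA repair gene, had none. CUL1, the scaffold gene of SCF ubiquitin ligases, is counted with protein turnover and had 4 peaks of 914, 1038, 599 and 646 bp, the first over a start.

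Patterning and homeobox genes had 1 to 9 peaks each. All 7 (59.0 to 100%) had a peak in or within 10 kb, with a median of 5, and 3 of 7 (42.9%, 9.90 to 81.6%) had a start inside one. Both intervals took in the shares over all genes, 70.1 and 23.8%. EN2, a homeobox gene of the midbrain and hindbrain, had 9, of 353 to 1747 bp, with the widest over its start (chr7:155458081-155459827). SHH, the gene of the Sonic hedgehog ligand, had 7 of 453 to 945 bp, none over its listed start. The nearest to the start, inside the gene, was 570 bp wide. MNX1, a homeobox gene rearranged in some infant leukaemias, had 5, with 814 bp over a start and 2023 bp beyond its far end. GBX1 had 6, with 704 bp over its start and none with a midpoint in its body. CNPY1 had 5, LMBR1 3 and RNF32 1.

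Sequence between these genes carried many of the peaks. The 147.9 kb from INSIG1 to EN2 held 27, or 18.3 per 100 kb, and 23 of the members there formed the second cluster of the region (chr7:155313177-155418762), with a median width of 552 bp. The 210 kb from HTR5A to INSIG1 held 22, of which 16 formed a cluster with a median of 450 bp. The 828 kb from SHH to RNF32, which holds no protein-coding gene, had 44, or 5.32 per 100 kb. LMBR1, whose introns carry a long-range limb enhancer of SHH, had 3 peaks, of 609, 394 and 390 bp. A stretch of 203 kb without a peak took in 90.6% of the gene. The position of the limb enhancer was not used here.

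Genes on the zinc finger list had between 1 and 6 peaks each. All 13 on the list (75.3 to 100%) had a peak in or within 10 kb, against 70.1% of all protein-coding genes. The share in the region, 86.0%, lay inside the interval. The list had a median of 3, against 3.5 for the genes of the region. A peak lay at a gene end for 5 of 13 (38.5%), near the 37.6% of all protein-coding genes, and 2 of the 11 with a listed start (18.2%, 2.28 to 51.8%) had it inside a peak, against 23.8% over all. The 2 were KRABD3, with 2720 bp, and ZNF786, with 526 bp. KRABD3 is named for a KRAB domain and was counted here, so the list is not made of zinc finger genes alone. ZNF783 had 6 peaks, ZNF775 5, ZNF467, ZNF746 and ZNF777 4 each, ZNF398 and ZNF786 3 each, ZNF212 2, and ZNF282, ZNF425, ZNF862 and REPIN1 1 each. Zinc finger genes share similar sequence, so these counts are uncertain.

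GIMAP genes, which encode GTPases of lymphocyte survival, had 0 to 2 peaks each. Of the 7, 2 (28.6%, 3.67 to 71.0%) had a peak in or within 10 kb, with a median of 0. None of the 7 listed starts lay in a peak (0 to 41.0%). Both intervals took in the shares over all genes, 70.1 and 23.8%. The first did so narrowly and did not reach the 86.0% of the genes of the region, whose median was 3.5. The second took in the 36.7% of the region. GIMAP8 had 540 bp inside the gene and 1132 bp before it, and GIMAP1 had 496 bp outside the gene. The distance from the gene to the nearest peak was 12.9 kb for GIMAP2, 15.9 kb for GIMAP4, 30.1 kb for GIMAP7, 30.4 kb for GIMAP5 and 73.9 kb for GIMAP6. The neighbouring TMEM176A and TMEM176B, a gene pair of myeloid cells, had none within 10 kb either, at 51.8 and 55.5 kb.

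Of the remaining lists, membrane and transport genes had peaks in or within 10 kb for 8 of 10 (80.0%, 44.4 to 97.5%, median 7), with a start in a peak for 4 (40%, 12.2 to 73.8%). Both intervals took in the shares over all genes, 70.1 and 23.8%. AGAP3 had 19, DYNC2I1 14, SLC4A2 12, ATG9B 9, ESYT2 8, FASTK 6, ABCF2 3 and CHPF2 3. ESYT2, which encodes a tether between the endoplasmic reticulum and the plasma membrane, had 1755 bp over its start. Protein turnover and folding genes had peaks for 7 of 8 (87.5%, 47.3 to 99.7%, median 3.5), with a start in a peak for 2 of 8 (25%, 3.19 to 65.1%), CUL1 and RBM33, and these intervals took in both shares too. DNAJB6 had 12, NUB1 6, UBE3C 4, RBM33 3, and PDIA4 and GALNT11 2 each. GALNTL5 had none. Genes on no list had peaks for 16 of 18 (88.9%, 65.3 to 98.6%, median 3.5), an interval that took in 70.1%.

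**Figure D5:**
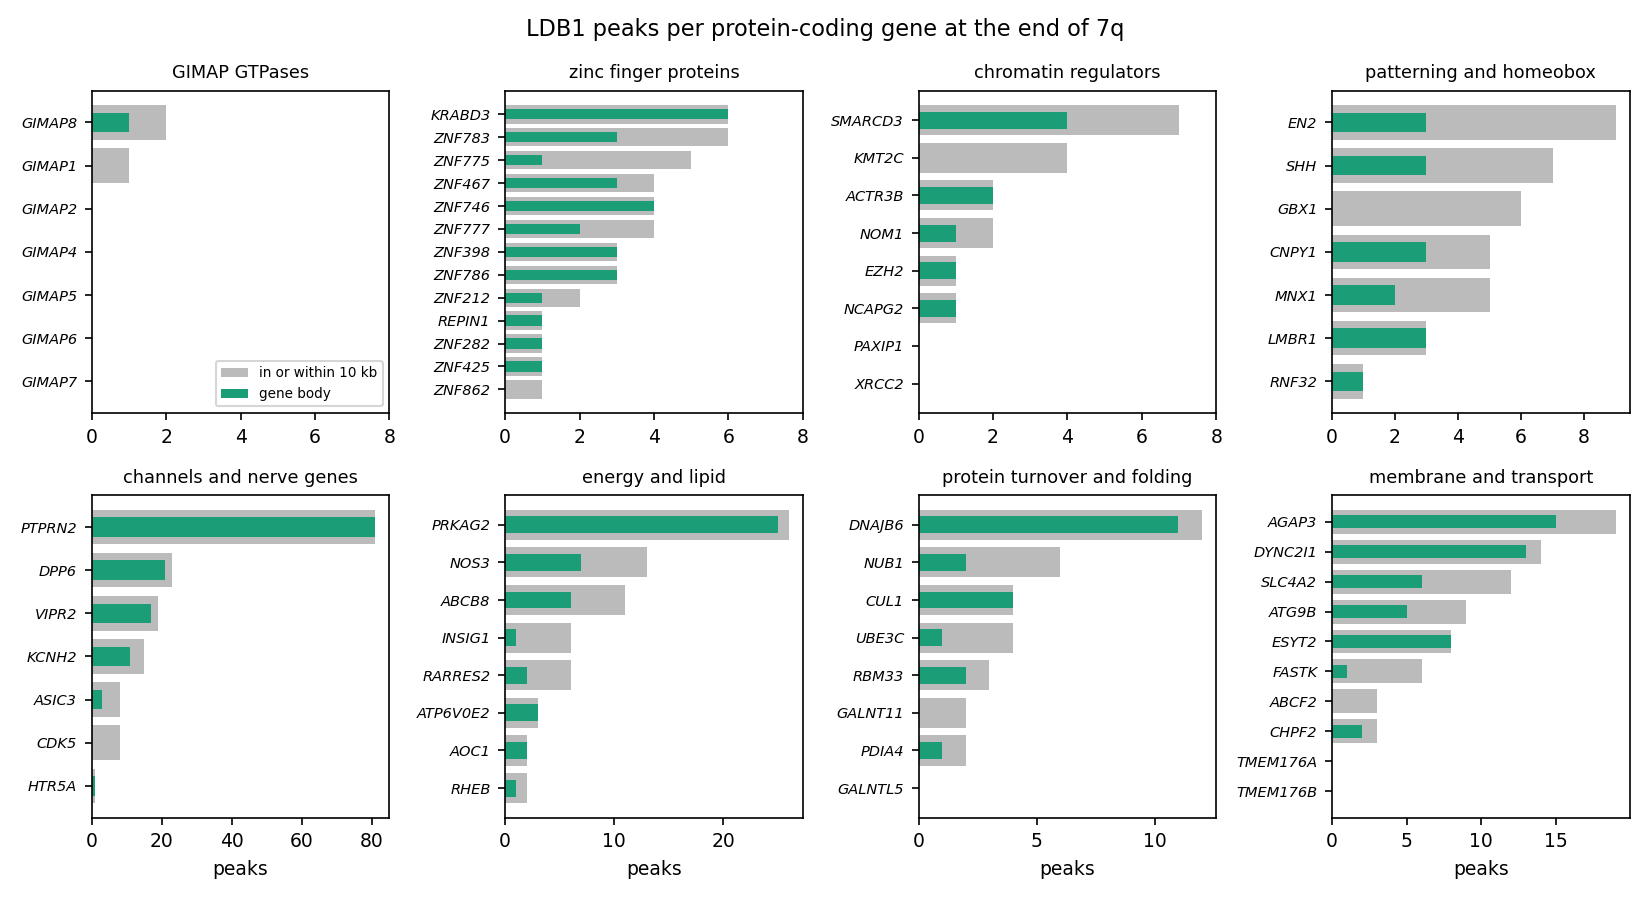
Peaks per protein-coding gene at the end of 7q for 8 gene lists, with the gene body in green and the body plus 10 kb to either side in grey; the number of peaks is on the horizontal axis, with its own scale in each panel. PTPRN2 reaches 81, and 5 of the 7 GIMAP genes have no bar.

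Long stretches without a peak divided the region. From the limit to the first member, at 148426226, no peak was listed, and this stretch took in the 421 kb part of CNTNAP2. Between neighbouring members the longest stretch, 362 kb, ran from before DPP6 to the peak of 2228 bp inside it (chr7:153524203-153886263). The next, 351 kb, lay inside DPP6. The third, 311 kb (chr7:152134162-152445528), took in the whole of KMT2C. Another of 202 kb took in GALNTL5 and GALNT11, which encode enzymes of the GalNAc transferase family, and 1 of 159.8 kb took in PAXIP1. The median gap between neighbouring peaks was 5.65 kb, against 9.62 kb over all other sequence.

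The 250 bases before the starts were compared by their G and C content and by short motifs. In the 29 genes of the region with a start in a peak, the median was 69.6% (quartiles 66.4 and 74.8%), against 62.2% (49.3 and 73.9%) in the 50 without one. Over all genes with a listed start the medians were 67.6% with a start in a peak and 60.4% without, so the same direction was found outside the region. The listed genes were 79.2% of protein-coding genes, too few for those medians to stand for all of them. The motifs in the 29 windows were set against those of the 3770 genes of the list with a start in a peak, and against all 15812. An E-box CANNTG, which reads the same on both strands, was found in 14 of the 29 (48.3%), in 30 of the 50 without a start in a peak (60%), in 53.6% of the 3770 and in 57.7% of all. Searched on both strands, AGATAA was in 1 of 29, in 4.38% of the 3770 and in 6.89% of all, and TGATAA was in 2 of 29, in 2.55% of the 3770 and in 4.93% of all. These GATA forms differ in their first letter, so they cannot both match at 1 place. GGGCGG, the GC box, was in 19 of 29 (65.5%), below the 71.1% of the 3770 and above the 56.1% of all. CCGGAA (ETS) was in 5 of 29 (17.2%), in 19.2% of the 3770 and in 19.2% of all. TGTGGT (RUNX) was in 3 of 29 (10.3%), in 7.14% of the 3770 and in 8.99% of all, and TAATTA (LIM homeobox) was in 1 of 29, in 1.33% of the 3770 and in 3.11% of all. For each motif the interval of the 29 genes took in both shares. The windows with a GATA form before a start in a peak were those of NOS3, HTR5A and DRC11L. Of these, only the NOS3 window lay whole inside its peak. Among the 29 windows 18 lay whole inside a peak, so a motif in the others may lie outside the peak.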

How the data were processed

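CUT&Tag libraries were made with the Vazyme Hyperactive Universal kit, per the labels' protocols. The deposited table gave the position and width in bp of each LDB1 peak, per the file headers, with starts and ends counted from 1. The submitters' processing notes named hg38, Bowtie2 2.4.1 and MACS2 2.0.10. The threshold, the handling of duplicate and multiply aligned reads, and any control used were not given in these sources. There was 1 LDB1 library, so no replicates were pooled.

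Midpoints were set against RefSeq genes (GRCh38.p14). Strand and starts came from a table of promoter windows, which held 15812 protein-coding genes (79.2%) and 79 of the 86 in the region. Starts and far ends were told apart for those genes only. ZBED6CL of the 70 list genes was not matched, and CNTNAP2 has its midpoint below the limit. Shares carry exact (Clopper-Pearson) 95% binomial intervals, and medians carry order-statistic ones. Work was done in Python 3.11.15, numpy 2.4.6, pandas 2.3.3 and scipy 1.17.1, and the assignment was checked on simulated peaks. The members and gene lists were chosen with earlier results of these data known. Genes named were list members and those at the 20 widest peaks, the 10 highest gene counts, the 5 largest clusters and the 3 longest gaps; other genes named were chosen after their values were seen. Sequences were shown for 4 of the 6 genes that the rule allowed. The 43 peaks on 9 alternate contigs of chromosome 7 were not counted.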

Additional observations from a re-analysis of the deposited data

How the results depend on the processing

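The peak number at the end of 7q was 573 with the limit 1 Mb lower and 559 with it 1 Mb higher, and the median width and the share at gene ends stayed inside their intervals at both limits and without PTPRN2. Of 31 alternatives, 13 kept their value within the interval, or for counts within 1.5 times, and 18 moved. Those that moved changed the peaks admitted, the distance or the genes used. With the widest 50% of all peaks, 284 members and 9 clusters of at least 5 peaks were left (570 and 26 with all peaks), and with the widest 25% 137 and 5. The share of members at gene ends was 13.7% with the widest 50% and 16.8% with the widest 25%, against 18.0 and 20.3% over all other sequence with the same peaks. It was 5.44% at 500 bp, 17% at 2500 bp and 16.7% with genes of all biotypes. Genes with a peak near by were 72.1% with the gene body alone, 94.2% at 50 kb and 61.6% with the widest 25%. Genes with a peak at an end were 29.1% at 500 bp, 65.1% at 2500 bp and 27.9% with the widest 25%. Genes with a start in a peak were 49.4% when the start lay within 250 bp of a peak and 21.5% with the widest 25%. These alternatives for starts were chosen after seeing the data. The shares over all protein-coding genes were not counted at any of these other settings. The gene shares in this paragraph therefore cannot be set against the shares over all genes given above. Joining peaks at 5 kb left 16 clusters. Depth was unknown, so a stretch without a peak shows that none was listed, not that LDB1 is absent. No paired analysis was possible because there was 1 library per antibody.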

Other observations

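Non-coding genes at the end of 7q were counted by kind, as touched or not touched by a peak. Of the 19 transfer RNA genes, 18 of them for cysteine, none was touched by a peak, where 14 of 443 (3.16%) were on chromosomes 1 to 22 and X. They lay within 398 kb (chr7:149310190-149707740) that held 10 peaks, and the distance from a transfer RNA gene to the nearest peak ran from 1.92 to 103 kb with a median of 52.9 kb. Transfer RNA genes for cysteine are near-identical copies, so their lack of peaks is uncertain. With 19 genes and a share of 3.16% over all chromosomes counted, a difference could not be judged. None of the 4 Y RNA genes was touched either, and these are all the Y RNA genes listed, so the count has nothing to be set against. RNY5 lay 0.224 kb from the nearest peak, RNY4 13.7 kb, RNY1 15.1 kb and RNY3 18.5 kb. Peaks touched 47 of the 100 long non-coding RNA genes, where 26.6% of 18177 were touched on chromosomes 1 to 22 and X, a share that moves with the density of peaks. RNF32-DT, between SHH and RNF32, held 9 peaks, and LINC03010 and LOC105375592, both in the stretch from INSIG1 to EN2, held 6 and 5. Peaks touched 2 of 44 pseudogenes, where 6.96% of 15212 were touched on those chromosomes. They touched 3 of 5 transcribed pseudogenes, where 37.6% of 1246 were touched. With so few pseudogenes touched, differences from those shares could not be judged.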
